A study of Homo sapiens with 3 samples.

Results

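The genes described here were 54 regulators of the cell division cycle: cyclins, cyclin-dependent kinases (CDKs), CDK inhibitors, the WEE1 and CDC25 enzymes, the E2F and RB families, mitotic kinases with checkpoint proteins, and a last class of licensing, stress and protein turnover factors. They were chosen by function, from 20162 protein-coding genes in the annotation, and all 54 were found there. Each was examined for binding of CRY1, a circadian repressor, in C4-2 cells. C4-2 cells are a human prostate cancer cell line that can grow without androgen. The cells stayed in hormone-proficient media for 24 hours before harvest, and all libraries carry the treatment label Veh. Chromatin immunoprecipitation and sequencing (ChIP-seq) with a CRY1 antibody gave 2 libraries, and 1 input library was made without immunoprecipitation. No other genotype, dose or time was compared, and the list holds no expression values by which the cell line could be checked.

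Cyclins bind and activate CDKs, which drive cells from one phase of the cycle to the next. D-type cyclins with CDK4 or CDK6, and E-type cyclins with CDK2, phosphorylate RB proteins and release E2F transcription factors at entry into DNA replication, whereas WEE1 holds back and CDC25 phosphatases release the kinase that starts mitosis. CRY1 represses the clock activators CLOCK and BMAL1, which bind the E-box, CACGTG. WEE1 is a textbook example of a cell cycle gene under E-box control by the clock.

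The authors combined both immunoprecipitations before they called peaks, and the data consist of 1 list of 2551 peaks. Each peak has a summit, its base of highest read pileup, and a fold enrichment over background at that base. Peaks therefore carry no replicate error, and binding seen in 1 library cannot be told apart from binding seen in both. Read depth is unknown from the list. Counts of genes are therefore given without a test, beside the same count over all protein-coding genes.

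A CRY1 summit lay within 5 kb of an annotated transcription start site (TSS) of 6 of the 54 regulators: the cyclins CCND3 and CCNE2, the kinases CDK2 and CDK4, the CDK inhibitor CDKN2C, and the transcription factor E2F3. These 6 were 11.1% of the regulators, close to the 8.22% of all protein-coding genes (1657 of 20162). All 6 also passed a limit of 1 kb. The nearest regulators on either side of the 5 kb limit were far apart, with CCNE2 at 589 bp and CDC25B at 5536 bp. Circadian clock genes, the known targets of this complex, gave 16 of 25 (64.0%). Within 50 kb of the gene body, 16 regulators had a summit (29.6%), against 22.1% of all genes.

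Around the summits of the 6 genes the E-box was common but not universal. It lay within 50 bp of the summit at CDKN2C, E2F3 and CDK2, inside the peak but farther from the summit at CDK4 and CCND3, and outside both peaks at CCNE2. The stretches below come from the hg19 assembly, read 5′ to 3′ on the strand of each gene, with every CACGTG in capitals. They are shown because they hold E-boxes in or beside these peaks. For CDKN2C, E2F3 and CDK2 the stretch is the 101 bp centred on the summit. For CDK4 and CCND3 it is sequence just upstream of a TSS beside the summit, which for CDK4 holds 3 of the 5 E-boxes of the peak and not the one nearest the summit.
CDKN2C, chr1:51426161-51426261, plus strand: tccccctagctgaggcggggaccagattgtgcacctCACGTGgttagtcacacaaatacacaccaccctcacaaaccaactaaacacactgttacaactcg
E2F3, chr6:20403704-20403804, plus strand: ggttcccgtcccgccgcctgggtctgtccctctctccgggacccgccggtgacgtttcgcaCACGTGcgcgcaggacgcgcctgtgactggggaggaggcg
CDK2, chr12:56360828-56360928, plus strand: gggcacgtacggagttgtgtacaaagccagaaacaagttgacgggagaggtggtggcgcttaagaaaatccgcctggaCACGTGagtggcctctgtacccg
CDK4, chr12:58146231-58146392, minus strand: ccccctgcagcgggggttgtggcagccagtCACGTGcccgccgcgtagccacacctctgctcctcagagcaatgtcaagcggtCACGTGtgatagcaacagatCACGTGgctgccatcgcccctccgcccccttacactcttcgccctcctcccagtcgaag
CCND3, chr6:42016707-42016763, minus strand: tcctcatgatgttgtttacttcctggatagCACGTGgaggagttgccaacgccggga
Over all 2549 peaks on chromosomes, 47.8% held CACGTG in the 101 bp around the summit and 57.4% held it anywhere in the peak. Among the 7 peaks of the 6 regulators the counts were 3 (42.9%) and 5 (71.4%).

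**Figure D1:**
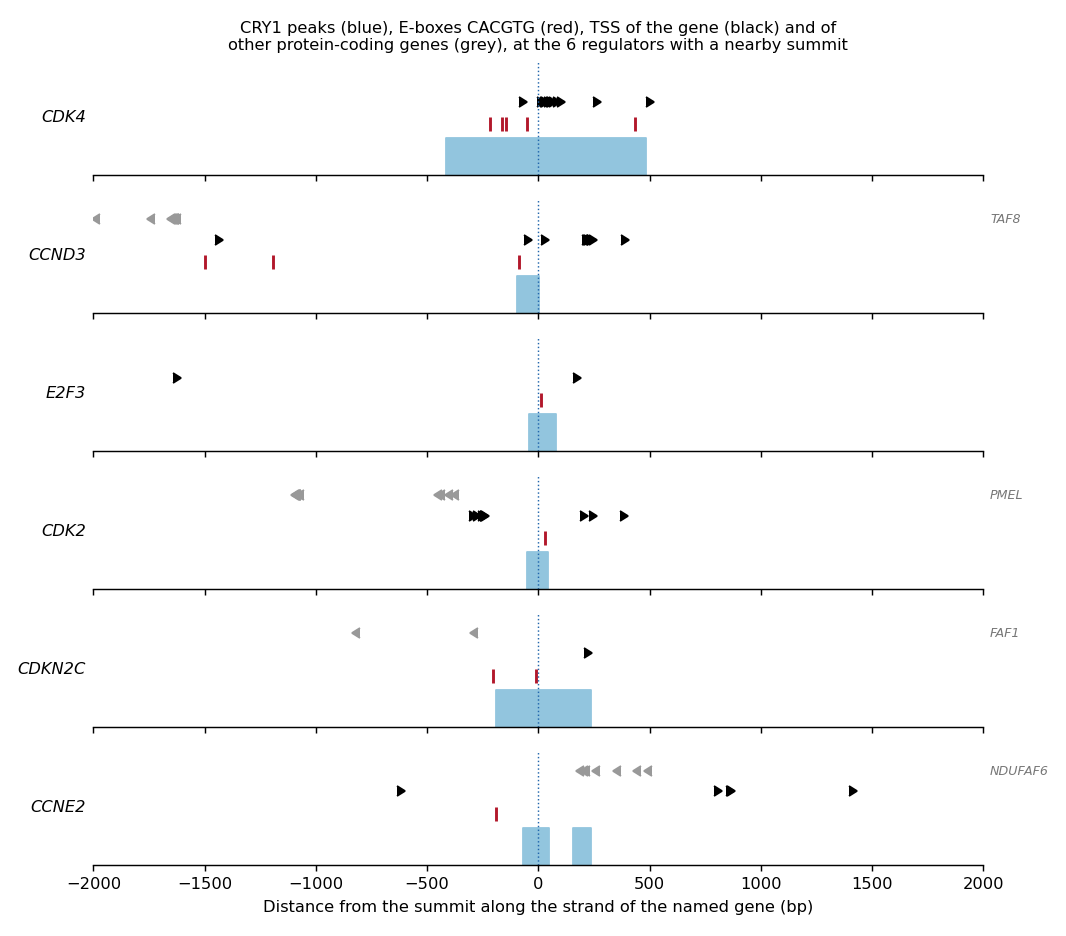
CRY1 peaks at the 6 regulators with a summit within 5 kb of a TSS, on a horizontal axis of distance in bp from the strongest summit of each gene, along its strand. Blue blocks are peaks, red ticks are E-boxes, and triangles point in the direction of transcription from TSS of the gene (black) or of other protein-coding genes (grey). The CDK4 peak is the widest at 898 bp and holds 5 E-boxes, whereas the E-box at CCNE2 lies outside both peaks.

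CDK4, the kinase partner of the D-type cyclins, had the strongest peak of the group. The peak spanned chr12:58145658-58146555 (898 bp), with an enrichment of 10.01-fold over background and a −log10 q of 20.4, and 91.9% of all peaks had a lower enrichment. Its summit lay 49 bp upstream of the TSS of the canonical transcript and 5 bp downstream of that of a retained-intron transcript. The peak held 5 E-boxes, a number reached by only 9 of 2549 peaks (0.353%), whose median width was 781 bp. The 3 printed above lay 144 to 217 bp from the summit. The closest, 50 bp away, ran past the edge of the 101 bp window and was not counted there. The next gene with a TSS within 5 kb of this summit was MARCHF9, at 2744 bp. A separate peak with a fold enrichment of 8.30 lay 16.1 kb upstream of CDK4, 11 bp from a TSS of METTL1.

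CDK2, the kinase partner of cyclins E and A, had a weaker and narrower peak at chr12:56360829-56360922. Its fold enrichment was 4.60 with a −log10 q of 4.50, and 31.7% of peaks lay below it. The summit was in the coding part of exon 1 of the canonical transcript, 264 bp downstream of its TSS and 186 bp upstream of that of a transcript with no annotated coding sequence. The E-box, at chr12:56360906-56360911, spanned the end of that exon: exon 1 ended at base 56360908, so 3 of the 6 bases of the E-box were exonic and the rest were the first bases of the intron. PMEL, a pigment cell gene transcribed from the other strand, had a TSS 358 bp from this summit.

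CDKN2C encodes an inhibitor of CDK4 and CDK6, and its peak was the second strongest of the group. It covered chr1:51426021-51426447 (427 bp) at an enrichment of 8.25-fold (−log10 q of 14.5), above 86.4% of peaks. The summit was 206 bp upstream of the first annotated TSS but 9706 bp upstream of the canonical one. The E-box was 11 bp from the summit. A TSS of the divergent gene FAF1 lay 272 bp away on the other side. The list cannot assign the peak to one gene of this pair. Of the other 6 inhibitors, none had a summit within 50 kb of its body, and CDKN1A, the p53-induced inhibitor, was 373 kb from one.

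E2F3, an activating E2F factor, had a peak at chr6:20403714-20403831. Its fold enrichment of 5.01 and −log10 q of 4.67 were near the middle of the list, above 44.5% of peaks. The summit was intronic in the canonical transcript, 1644 bp downstream of its TSS, and 156 bp upstream of the TSS of an alternative transcript. The E-box was 14 bp from the summit. E2F3 was the only one of the 6 with no other protein-coding TSS within 5 kb of the summit.

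CCND3, a D-type cyclin, had the weakest peak of the group, at chr6:42016639-42016739. The fold enrichment was 3.51 and the −log10 q was 1.78, with only 6.55% of peaks below it. The summit was 11 bp upstream of the TSS of an alternative transcript, while the canonical TSS was 107 kb downstream. The E-box was 88 bp from the summit. TAF8, transcribed in the opposite direction, had a TSS at 1608 bp.

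CCNE2, an E-type cyclin, had 2 peaks upstream of its canonical TSS, in an intron of a transcript that starts farther upstream. The stronger, at chr8:95908223-95908340, was enriched 6.65-fold (−log10 q of 11.1), above 75.2% of peaks. The other, at chr8:95908035-95908117, had values of 4.92 and 5.86, above 42.1%. The summits were 843 and 642 bp upstream of the canonical CCNE2 TSS. They were closer to TSS of the divergent gene NDUFAF6, a mitochondrial complex I assembly factor, at 207 and 6 bp. No E-box lay in either peak, and the nearest was 193 bp from the stronger summit.

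The 7 peaks had a median fold enrichment of 5.01, against 5.18 over all peaks, and a median −log10 q of 5.86 against 6.02. CDK4 and CDKN2C stood in the upper part of the list and CCND3 near its end. None approached the strongest clock gene peak, at PER2, where the fold enrichment was 22.8. The 41 clock gene peaks started at 3.17 and had a median of 6.45, so the ranges overlapped. In 5 of the 6 genes another protein-coding gene had a TSS within 5 kb of the same summit. The same share over all genes with a summit was not measured, so this count does not set the 6 apart.

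**Figure D2:**
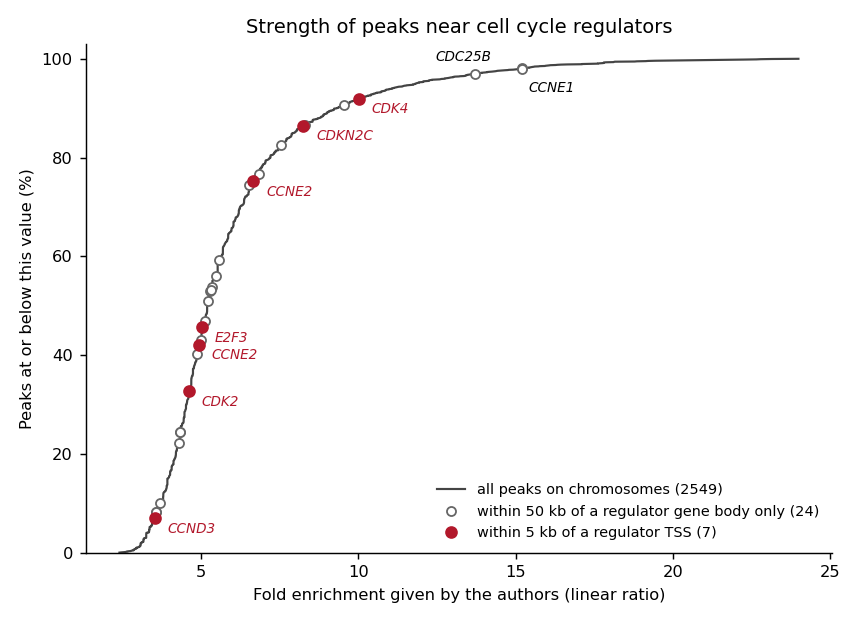
Fold enrichment given by the authors (linear ratio, horizontal axis) against the percentage of the 2549 peaks at or below that value, with all peaks as the line. Filled points are the 7 peaks within 5 kb of a regulator TSS, from 3.51 at CCND3 to 10.01 at CDK4, and open points are the 24 others within 50 kb of a regulator gene body, the strongest near AURKB and CCNE1 at 15.2.

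By class, a summit within 5 kb of a TSS was found for 2 of 11 cyclins, 2 of 5 CDKs, 1 of 7 CDK inhibitors and 1 of 11 E2F and RB genes. It was found for 0 of 5 genes of the WEE1 and CDC25 class, 0 of 8 mitotic kinases and checkpoint genes, and 0 of 7 licensing, stress and turnover genes. Within 50 kb of the gene body the counts were 3 cyclins, 2 CDKs, 1 inhibitor, 2 of the WEE1 and CDC25 class, 3 of E2F and RB, 2 mitotic genes and 3 of the last class. Over all protein-coding genes the shares were 8.22% within 5 kb and 22.1% within 50 kb, and at such shares a count of 0 among 5 to 8 genes does not set a class apart.

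**Figure D3:**
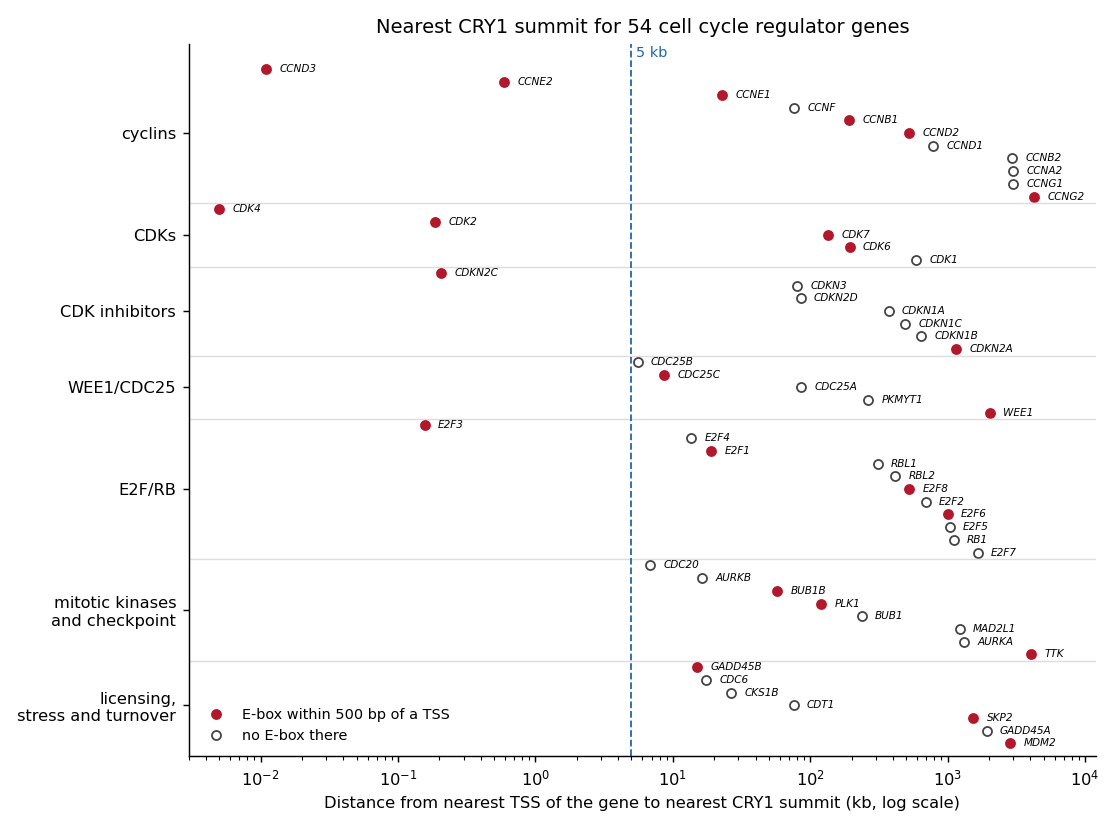
Distance from the nearest annotated TSS of each of the 54 regulators to the nearest CRY1 summit (kb, log scale), grouped by class. Filled points have an E-box within 500 bp of a TSS, and the dashed line is at 5 kb. The 6 genes to its left all have such an E-box, and the distances to its right run from 5.54 kb for CDC25B to 4284 kb for CCNG2.

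A further 10 regulators had a summit within 50 kb of the gene body but none within 5 kb of a TSS. CDC25B, a phosphatase that activates mitotic CDK, came nearest by TSS, whereas CDC25C came nearest by gene body. The CDC25B peak at chr20:3788020-3789555 was 1536 bp wide with a fold enrichment of 13.7, above 96.9% of peaks. The summit was 2.18 kb past the 3′ end of the gene and 52 bp from a TSS of LINC01730, a long noncoding RNA. A second peak, with a fold enrichment of 9.55, lay 5.81 kb past the same end. CCNE1, the other E-type cyclin, had a peak at chr19:30334859-30336009 (1151 bp) enriched 15.2-fold (−log10 q of 49.2), above 98.0% of peaks. That summit was intergenic, 20.2 kb past the 3′ end of CCNE1, which was the closest protein-coding gene by TSS. The 101 bp around these summits are shown because they were the strongest peaks with a regulator as the nearest protein-coding gene.
CCNE1, chr19:30335320-30335420, plus strand: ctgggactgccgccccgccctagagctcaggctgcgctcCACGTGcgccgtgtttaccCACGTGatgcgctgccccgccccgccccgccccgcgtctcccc
CDC25B, chr20:3788902-3789002, plus strand: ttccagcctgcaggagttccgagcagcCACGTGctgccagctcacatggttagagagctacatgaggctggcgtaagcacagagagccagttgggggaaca
The CCNE1 window held 2 E-boxes and the CDC25B window held 1.

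The other 8 of these genes mostly had summits at the promoters of neighbours. For CDC20, an activator of the anaphase-promoting complex, the summit was 6.82 kb from a TSS and 86 bp from one of ELOVL1. For E2F4, a repressive E2F factor, it was 13.6 kb upstream, 796 bp from a TSS of MATCAP1. CDC6, a replication licensing factor, was 17.4 kb from a summit that lay 10 bp from a TSS of RARA. E2F1, an activating E2F factor, was 19.1 kb from a summit 378 bp from a TSS of ACTL10. For CKS1B, a CDK-binding subunit, the distance was 26.6 kb, and the summit was 1084 bp from a TSS of ZBTB7B.

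AURKB, a mitotic kinase, had 8 peaks within 50 kb of its body. The nearest was 16.3 kb from a TSS, beside BORCS6, and the strongest, with a fold enrichment of 15.2, was the peak of the clock gene PER1. CDC25C and GADD45B differed from these genes in that no other protein-coding TSS was closer to the summit. The CDC25C summit lay 8.69 kb from the nearest annotated TSS of the gene but 48.4 kb from the canonical one. It was 1.85 kb past the 3′ end of the gene, with a fold enrichment of 5.45. The GADD45B summit was 14.9 kb from a TSS with a fold enrichment of 5.56. Over all 31 pairs of a regulator and a peak within 50 kb, 24 were not within 5 kb of the regulator's TSS. In 16 of those 24 the summit lay within 1 kb of a TSS of another protein-coding gene. Summits near promoters were common in the whole list, where 1772 of 2549 peaks lay within 5 kb of a protein-coding TSS. The share of all peaks within 1 kb was not measured. The 50 kb limit fell between CKS1B, 24.7 kb from its summit by gene body, and BUB1B at 57.5 kb.

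For the remaining 38 regulators the nearest summit was over 50 kb from the gene body. CCND1, the D-type cyclin often amplified in cancer, was 782 kb from a summit. For 16 regulators the nearest TSS was over 1000 kb away, and the farthest were CCNG2 at 4284 kb, the spindle checkpoint kinase TTK at 4069 kb and CCNG1 at 2998 kb. CCNA2 and MAD2L1 had the same nearest summit, as did CCNB1 and CDK7. The median distance over the 54 genes was 252 kb, against 288 kb over all protein-coding genes on chromosomes with a peak (n = 20098) and 0.310 kb over the clock genes. At 20 kb from a TSS the regulators reached 25.9%, against 13.0% of all genes, and at 1000 kb they reached 70.4% against 76.8%.

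**Figure D4:**
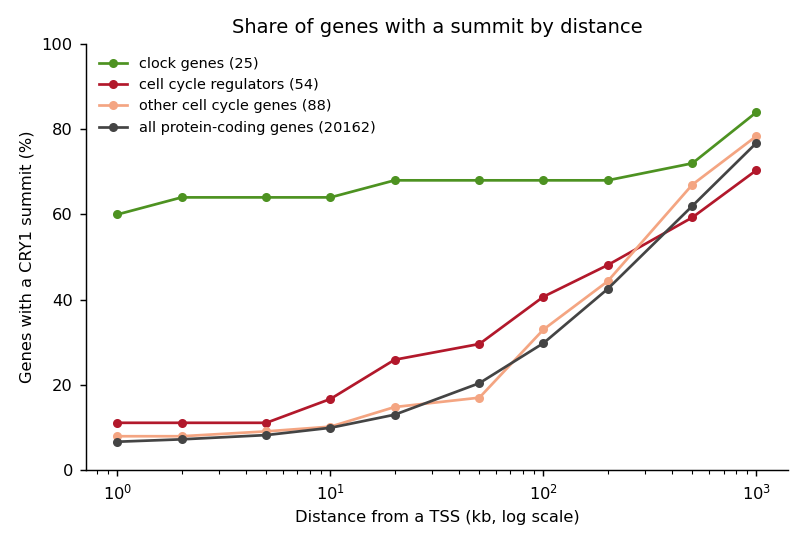
Percentage of genes with a CRY1 summit within a given distance of a TSS (kb, log scale), for the 54 regulators, 88 other cell cycle genes, 25 clock genes and all 20162 protein-coding genes. Clock genes start at 60.0% at 1 kb, while the regulators start at 11.1% and all genes at 6.66%.

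WEE1, the inhibitory kinase of mitotic CDK, had no summit within 50 kb, and the nearest lay 2034 kb from a TSS. An E-box was nevertheless present within 500 bp of its TSS. The absence of a peak says that none passed the authors' threshold in the combined libraries. A lower level of binding was not detectable from the list.

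An E-box within 500 bp of an annotated TSS was present in 24 of the 54 regulators (44.4%), against 38.1% of all protein-coding genes. All 6 regulators with a summit within 5 kb were among these 24 (25%), and 0 were among the 30 without an E-box. Over all genes the same shares were 16.0% with an E-box and 3.42% without. By the canonical TSS alone, only CDK2, CDK4 and CDKN2C of the regulators with a summit had an E-box within 500 bp. The one at CDKN2C lay 66 bp from that TSS and 9640 bp from the nearest summit. For CCND3, CCNE2 and E2F3 the nearest counted E-box was 107185, 1036 and 1658 bp from the canonical TSS. Of the 3 regulators with 3 or more E-boxes, CDK4, CCND3 and CDKN2C, all had a summit. These E-boxes were counted around all TSS of a gene and not at the summit. Only CDK4 had 3 or more inside its peak, while the CCND3 and CDKN2C peaks held 1 each. Regulators with 1 E-box near a TSS had a summit in 3 of 15 cases and those with 2 in 0 of 6. Over all genes the share rose from 3.42% through 11.7% and 21.2% to 27.4% as the number of E-boxes went from 0 to 3 or more. The median number of annotated TSS rose alongside, from 4 to 14, and its part in this gradient was not tested.

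**Figure D5:**
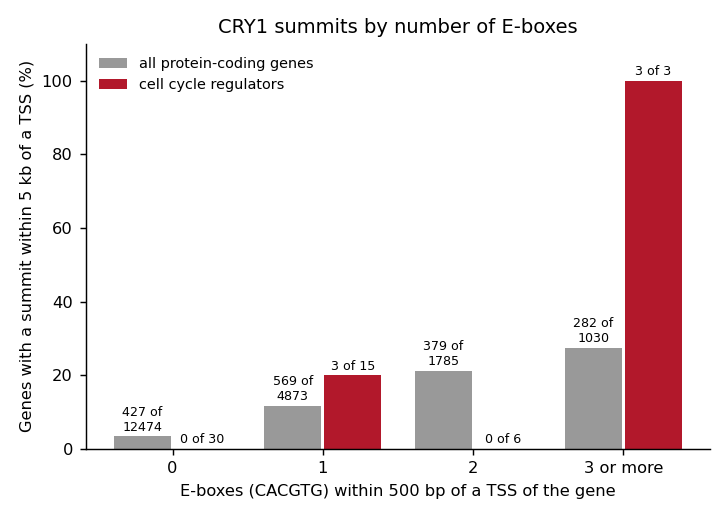
Percentage of genes with a CRY1 summit within 5 kb of a TSS (vertical axis) by number of E-boxes within 500 bp of any TSS, for all protein-coding genes (grey bars) and the 54 regulators (red bars), with the counts above each bar. The grey bars rise from 3.42% to 27.4%, and the red bars rest on 30, 15, 6 and 3 genes.

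The other 18 regulators with an E-box had no summit within 5 kb. Over all genes with an E-box within 500 bp only 16.0% had a summit, so an E-box without a summit was the usual case. In 6 of the 18, chosen after their values were seen, an E-box lay within 50 bp of a TSS: WEE1, CDK6, CDK7, CCNG2, E2F6 and SKP2. The same count over all protein-coding genes was not made. CDK6, the close relative of CDK4, had its E-box 32 bp from the canonical TSS, and the nearest summit was 194 kb from any of its TSS. CDK7, the CDK-activating kinase, had one 11 bp from a TSS and a nearest summit at 134 kb. For SKP2, which directs the CDK inhibitor CDKN1B to degradation, the E-box was 17 bp from a TSS and the nearest summit was 1543 kb away. E2F1 also had an E-box, 369 bp upstream of its only annotated TSS.

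Among 88 other cell cycle genes, 8 (9.09%) passed the 5 kb limit, close to the 8.22% of all protein-coding genes. Those with the strongest peaks were subunits of the anaphase-promoting complex, ANAPC4 with a fold enrichment of 11.7 and ANAPC13 with 10.5. The ANAPC13 summit lay 14 bp from a TSS of CEP63. ANAPC2 reached 5.05 and 4.58 in 2 peaks, with summits 398 bp and 15.3 kb from its canonical TSS. A TSS of another gene was closer to each, SSNA1 at 252 bp and TMEM210 at 1220 bp. PLK3, a stress-responsive kinase, had 2 peaks at 5.24 and 3.46. SMAD2 (4.60), the spindle checkpoint gene MAD1L1 (4.24), GADD45G (4.19) and the replicative helicase subunit MCM7 (2.89) completed the list. The MAD1L1 summit lay 60.2 kb from the canonical TSS and was counted through a transcript with no annotated coding sequence.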

How the data were processed

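CRY1 ChIP-seq in C4-2 cells comprised 2 immunoprecipitated libraries and 1 input, grouped by their titles. According to the study's methods, reads were aligned to hg19 with bowtie2 and peaks were called with MACS2 on the combined replicates at q < 0.05. Use of the input as control is presumed, and duplicate handling is not given in the sources used here. Each deposited peak carries a score, a fold enrichment (a linear ratio over background), a −log10 p-value, a −log10 q-value and a summit offset, all computed by the authors. Depth is unknown from the list.

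Summits were compared with the GRCh37 genome and GENCODE release 44 mapped to it, using Python 3.11.15, numpy 2.4.6, pandas 2.3.3 and pyfaidx 0.9.0.4. The 2 peaks on contigs were left out, leaving 2549. Genes were counted by the distance from a summit to any annotated TSS (up to 5 kb) and to the gene body (up to 50 kb). CACGTG, the same word on both strands, was searched within 50 bp of summits and 500 bp of TSS. No test was made, since 1 pooled list has no replicate values. The nearest-distance step was tested on simulated summits and TSS, and the motif search on a short made-up sequence. The gene-body distance was not tested in this way.

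The members and lists were chosen with earlier results of these data known. Genes named were all members within either distance, those next to each limit, WEE1, CDKN1A, CCND1 and E2F1, the 3 farthest members, other cell cycle genes within 5 kb, and the strongest clock peak. Alternatives varied the peak threshold, transcripts, peak position, distances and motif windows. Some promoter sequence is not reported here.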

Additional observations from a re-analysis of the deposited data

How the results depend on the processing

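The number of regulators with a summit within 5 kb of a TSS ran from 4 to 9 of 54 over 7 alternatives. At a limit of 10 kb it was 9 of 54 (16.7%), against 9.93% of all genes. At q under 0.01 CCND3 was lost, leaving 5 of 54, against 7.98% of all genes. At a fold enrichment of at least 5, CCNE2, CDK4, CDKN2C and E2F3 were left (4 of 54). Of the 88 other cell cycle genes 4 were left, and the share of all genes fell to 5.49%. With 1 canonical transcript per gene CCNE2, CDK2, CDK4 and E2F3 were left (4 of 54), against 6.71% of all genes. The calls at CCND3 and CDKN2C therefore rest on alternative TSS. Counting any base of the peak gave 7 of 54, adding CDC25B, against 8.27% of all genes. The median distance moved to 454 kb at a fold enrichment of at least 5, against 488 kb over all genes. The count of peaks with an E-box by the summit became 7 of 12 when peaks within 10 kb of a TSS were taken, against 47.8% of all peaks. Within 100 bp of the summit it was 5 of 7, against 54.6% of all peaks. Within 10 kb of the gene body, 10 of 54 regulators had a summit (18.5%), against 12.1% of all genes. With canonical TSS alone, 15 of 54 regulators had an E-box within 500 bp, against 18.0% of all genes. Whether these shifts go beyond the effect of a wider or narrower choice was not tested. Genes with more annotated TSS had more chances to be counted: over all genes the share within 5 kb rose from 3.17% with 1 TSS to 12.0% with 10 or more, and the regulators had a median of 7 TSS against 5. No replicate could be left out because the peaks were called on combined libraries. No paired analysis was possible because the list has no values per replicate.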

Other observations

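A grouping of the regulators by the phase in which they act was made after their values were seen, and is given as values only. All 6 genes with a summit within 5 kb of a TSS fell among the 30 that act in G1 phase or at the start of DNA replication, and 0 fell among the 18 of G2 phase and mitosis or the 6 others. Within 50 kb of the gene body the counts were 11 of 30, 4 of 18 and 1 of 6. An E-box within 500 bp of a TSS was present in 14, 6 and 4 genes of these groups. Over all protein-coding genes the shares were 8.22% within 5 kb, 22.1% within 50 kb and 38.1% with an E-box, so a count of 0 among 18 or 6 genes does not set those groups apart. Whether the groups differ was not tested.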
